A study of Mus musculus with 15 samples.

Results

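Myricetin is a plant flavonol that carries an additional hydroxyl group on its B ring compared with quercetin, while kaempferol carries fewer. The comparison described here sets the liver transcripts of mice given myricetin against those of mice on a cholesterol-rich model diet, and it uses 6 of the 15 libraries of the series, 3 labelled myricetin (replicates 5, 7 and 8) and 3 labelled model (replicates 1, 2 and 5). All mice were wild type and were fed for 6 weeks. The model feed was 78.8% standard feed, enriched with lard (10%), cholesterol (1%), sodium cholate (0.2%) and egg yolk powder (10%). The myricetin group was labelled as fed a high-fat diet and received 75 mg/kg of myricetin per day by oral gavage. The labels do not state the composition of that high-fat diet, nor the mice's sex or strain, the hour of collection, any fast before it or a vehicle gavage for the model mice, so any difference in feed or gavage cannot be told apart from myricetin. The 9 other libraries were controls on standard feed, quercetin at 200 mg/kg per day and kaempferol at 100 mg/kg per day. The doses of the 3 flavonols differ, so compound and dose cannot be told apart where they are set side by side. Libraries of a group are not stated to come from separate mice, and p-values measure only the spread between libraries, which may be technical.

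The myricetin libraries held 15853767 to 17576502 counts and the model libraries 16253513 to 17322948, with counts for 14622 to 14832 genes in these 6. Levels below are CPM, a gene's count as a share of the scaled library total, and are not corrected for gene length. A change is a log2 fold change, myricetin over model, with its standard error (SE), and a gene passed when its edgeR quasi-likelihood p-value, adjusted by the Benjamini-Hochberg method over all 12658 genes tested, was under 0.05. The median SE was 0.162, which gives a 95% interval of about 0.343 to either side. For the labelled tissue, Alb, which encodes albumin, stood at 53100 CPM in the model and 48340 CPM with myricetin, and of 20 hepatocyte markers none passed.

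Among the smallest p-values were those of the clock genes Nr1d1 and Cry1 and of Nat8f7, from a cluster of acetyltransferase genes. Of the 12658 genes, 50 passed (0.395%), with 23 higher (0.182%) and 27 lower (0.213%) in the myricetin libraries. In each of the 50 the CPM of both groups were fully separate, which was so for 18.8% of all genes. The size of change was at least 2-fold in 24 of them, and the smallest was 1.38-fold. Among all genes the median log2 fold change was 0.01 and the median size of change 0.15. At an unadjusted p under 0.05 there were 1505 genes (11.9%). Counts of passing genes moved with single libraries: 18 passed without model replicate 1, 13 without model 2, 14 without model 5, 65 without myricetin 5, 15 without myricetin 7 and 15 without myricetin 8. Of the 50, 9 passed whichever of these 6 libraries was left out, among them Nr1d1, Cry1, Trib3, Fbxo21, Lgalsl, Nat8f7, Nat8f6 and Lingo4.

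**Figure D1:**
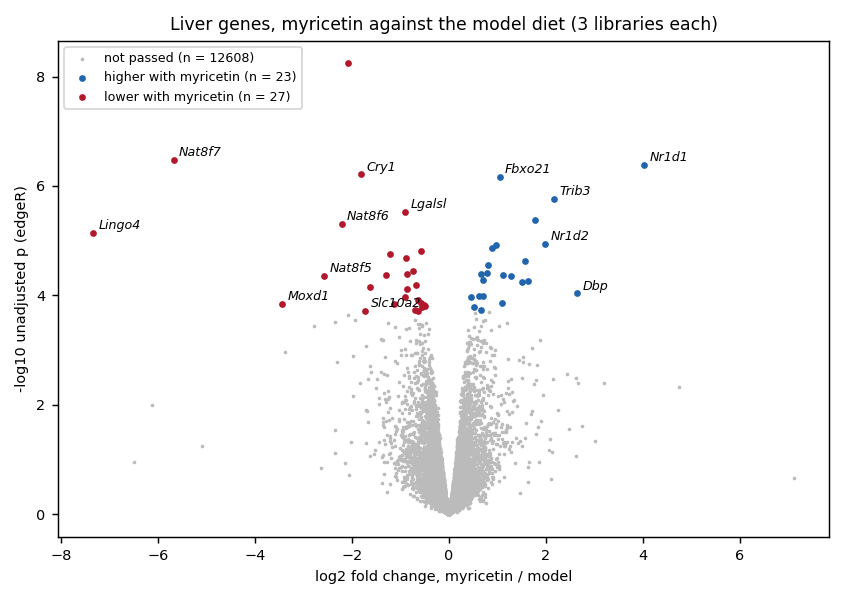
Each point is 1 of 12658 genes, with the log2 fold change of myricetin over model on the horizontal axis and the -log10 of the unadjusted edgeR p-value on the vertical axis. The 23 genes that passed and were higher are blue, the 27 that passed and were lower are red, and Nr1d1 has the largest rise among those that passed.

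The mammalian clock is a loop in which the activators CLOCK (or its relative NPAS2) and BMAL1, encoded by Arntl, switch on the Per and Cry genes, whose proteins then repress them. A second arm runs through the nuclear receptors REV-ERB alpha and beta, encoded by Nr1d1 and Nr1d2, which repress at DNA elements where the ROR receptors activate. In liver the loop drives daily rhythms of many metabolic genes through output factors such as Dbp.

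Among the repressors of the second arm, Nr1d1 rose with myricetin. It was at 4.16, 6.63 and 7.05 CPM in model replicates 1, 2 and 5 and at 73.3, 134.3 and 84.1 CPM in myricetin replicates 5, 7 and 8. All 3 myricetin values stood far above all 3 model values, a change of 4.03 ± 0.40, or 16.3-fold (edgeR adjusted p = 0.00173). Nr1d2 rose from 12.1, 12.1 and 17.6 CPM to 39.8, 75.2 and 51.2 CPM, by 1.99 ± 0.29 (edgeR adjusted p = 0.0125, reaching 0.0746 without model replicate 2). Nr1d1 overlaps Thra on the opposite strand and reads of both could mix if strand was not used in counting, but Thra differed by -0.28 (edgeR adjusted p = 0.523).

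Among the activating receptors of the same elements, Rora was at 50.8 CPM in the model and 45.3 CPM with myricetin and did not pass (edgeR adjusted p = 0.656).

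Cry1, a repressor of CLOCK and BMAL1, fell from 52.0, 44.5 and 48.0 CPM to 17.9, 13.4 and 10.2 CPM. The groups were well apart, and the change was -1.80 ± 0.22 (edgeR adjusted p = 0.00174). The sequence upstream of its start is shown because it holds the E-box, CACGTG, to which CLOCK and BMAL1 are known to bind, and the sequence upstream of Nr1d1, the clock gene with the greatest rise, is shown beside it. Both are RefSeq sequences of GRCm38.p6, read 5′ to 3′ on the minus strand, with the E-box in capitals. The Cry1 stretch lies at chr10:85185065-85185304 and its E-box starts 60 bases before the gene's start. The Nr1d1 stretch lies at chr11:98775378-98775627 and holds no CACGTG.
Cry1: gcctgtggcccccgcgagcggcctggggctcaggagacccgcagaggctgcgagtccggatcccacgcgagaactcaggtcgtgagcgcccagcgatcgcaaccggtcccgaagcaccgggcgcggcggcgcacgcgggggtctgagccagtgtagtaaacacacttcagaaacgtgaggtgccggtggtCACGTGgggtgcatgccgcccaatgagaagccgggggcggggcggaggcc
Nr1d1: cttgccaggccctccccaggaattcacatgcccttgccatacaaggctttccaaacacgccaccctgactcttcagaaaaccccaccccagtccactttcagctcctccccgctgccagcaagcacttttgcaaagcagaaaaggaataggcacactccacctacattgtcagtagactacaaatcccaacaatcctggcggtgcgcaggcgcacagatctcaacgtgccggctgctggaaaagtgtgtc

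Letters matching the E-box on either strand stood in 6.0% of 32851 promoter windows, each the 250 bases before a RefSeq start. Counted by gene, 6.9% held them in at least 1 window. Of the 50 genes that passed, 44 had such a window, and 4 of them held the E-box (Arsa, Cry1, Ddo and Zbtb21). Clock and clock output genes that did not pass also held it, namely Per1, Tef, Ciart, Bhlhe41, Tspan4 and Lonrf3. Elements outside these 250 bases were not searched. The D-box of the DBP family, searched as TTATGNAA, stood in 3.1% of all windows (3.6% of genes) and in those of 5 genes that passed (Akr1d1, Creld1, Gda, Pla2g12a and Syt1). The element shared by ROR and REV-ERB receptors, searched as TAGGTCA, stood in 2.2% of all windows (2.5% of genes) and in that of 1 gene that passed, Parp16.

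The following members of the core loop did not pass. Arntl was at 30.9, 27.2 and 27.8 CPM in the model and 23.2, 16.3 and 12.9 CPM with myricetin, with all 3 myricetin values under the model values and a change of -0.71 ± 0.23 (edgeR adjusted p = 0.226). Per2 was at 31.7, 33.5 and 18.5 CPM in the model and at 9.84, 10.6 and 10.5 CPM with myricetin, a difference of -1.44 ± 0.47 without overlap (edgeR adjusted p = 0.24). It passed in a fit of these 6 libraries alone (edgeR adjusted p = 0.0164). Npas2 was split within the myricetin group, at 6.18 CPM in replicate 5 but 1.39 and 0.69 CPM in replicates 7 and 8, against 6.57 to 8.43 CPM in the model. Cry2 was at 37.4, 35.5 and 35.0 CPM in the model and at 28.7, 28.3 and 25.7 CPM with myricetin. Its difference was -0.38 ± 0.13 without overlap (edgeR adjusted p = 0.245). Clock differed by -0.09 ± 0.15 and Per3 by -0.28 ± 0.33, both with overlapping groups. Per1 was at 4.29, 10.3 and 24.2 CPM with myricetin and 14.4, 5.70 and 5.33 CPM in the model, so its spread within each group exceeded the difference between them.

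Of 15 core loop genes tested, 2 rose, 2 fell and 11 did not pass, with a median log2 fold change of -0.19, while 0.395% of all genes passed. The groups did not overlap in 9 of the 15, against the 18.8% of all genes given above. Of 14 output genes 1 rose and 13 did not pass (median -0.06). The gene that rose was Dbp, an activator of D-box genes, which was at 2.21, 2.79 and 3.03 CPM in the model and at 5.55, 19.8 and 25.2 CPM with myricetin. Replicate 5 was nearest to the model, and the change was 2.65 ± 0.45 (edgeR adjusted p = 0.0356). Dbp passed in 1 of the 6 fits that left out a library, with adjusted p up to 0.149 without model replicate 2, and it did not pass in the fit of these 6 libraries alone (edgeR adjusted p = 0.207). Its relatives Tef and Hlf, which bind the same sequence, differed by 0.49 ± 0.24 and -0.07 ± 0.14, and Nfil3, which represses there, by -0.65 ± 0.19, none of them passing. Time of day at collection is not in the labels, and its part in the clock gene differences was not tested.

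**Figure D2:**
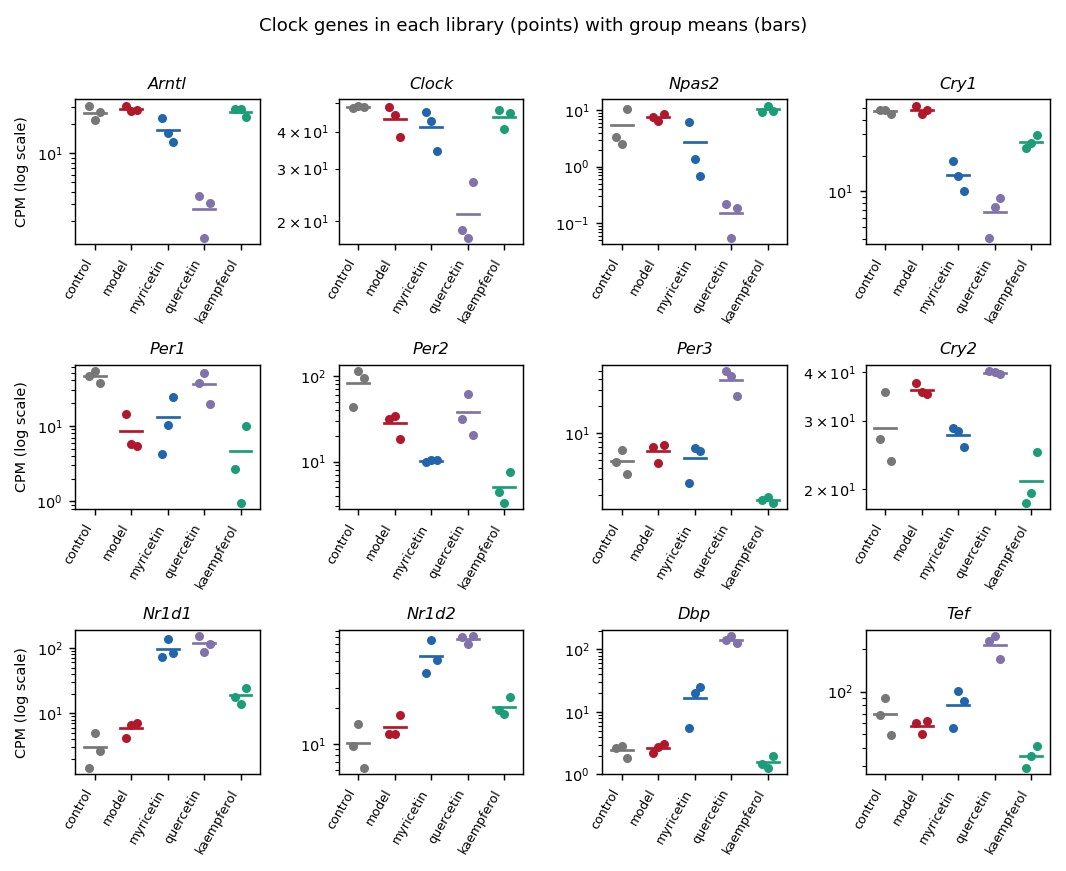
Each panel gives the CPM of 1 clock gene on a log axis, with a point for each library of the 5 groups and a bar at the group mean. The myricetin points lie above the model points for Nr1d1, Nr1d2 and Dbp and below them for Cry1, Cry2, Arntl, Npas2 and Per2. Dbp with quercetin lies above every myricetin library.

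Set beside the other groups, the clock genes of the myricetin libraries did not take the same levels as those of quercetin. Tested directly, 10 of the 29 genes of both clock lists differed between myricetin and quercetin, 3 higher and 7 lower with myricetin, against 0.798% of all genes. Arntl averaged 17.5 ± 5.2 CPM with myricetin and 2.65 CPM with quercetin (edgeR adjusted p = 0.000663), and Clock 41.4 and 21.1 CPM (0.00607). Dbp averaged 16.9 ± 10.1 CPM with myricetin and 143.1 CPM with quercetin (edgeR adjusted p = 0.00558), and Per3 5.21 and 39.5 CPM (0.000988). Tef, Ciart, Bhlhe41, Wee1 and Tspan4 were lower and Leo1 higher with myricetin than with quercetin. Nr1d1, at 97.2 ± 32.6 CPM with myricetin, 117 CPM with quercetin and 18.7 CPM with kaempferol, did not differ between myricetin and quercetin by that test (log2 difference -0.27, adjusted p = 0.81).

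Between myricetin and kaempferol 0 of all genes passed the edgeR test, while 925 (7.31%) had an unadjusted p under 0.05 and DESeq2 called 36. The smallest adjusted p-values among clock genes there were those of Dbp, at 1.58 CPM with kaempferol (log2 difference 3.40, edgeR adjusted p = 0.0713), and Nr1d1 (2.38, adjusted p = 0.0713). Against the standard-feed control 1164 genes (9.2%) differed, 578 higher (4.57%) and 586 lower (4.63%) with myricetin, 26.4% had an unadjusted p under 0.05, and 9 of the 29 clock genes were among them. Per2 was at 83.3 CPM in the control and 10.3 CPM with myricetin (edgeR adjusted p = 0.00435).

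The Nat8 family encodes N-acetyltransferases of the endoplasmic reticulum, and its mouse genes form a cluster on chromosome 6. NAT8 is known for the last step in making mercapturic acids, through which the liver and kidney clear reactive compounds. Of 7 members tested, 3 fell and 4 did not pass, with a median of -1.66, while 0.213% of all genes fell. Because these genes are close copies, the division of reads between them by the authors' counting is uncertain.

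Nat8f5 had the highest level of the 3 that fell. It was at 53.5, 50.9 and 76.5 CPM in the model and at 15.2, 8.68 and 6.67 CPM with myricetin, -2.56 ± 0.40 on the log2 scale (edgeR adjusted p = 0.022, reaching 0.113 without myricetin replicate 7). Nat8f6 fell from 3.06, 2.79 and 3.95 CPM to 0.80, 0.90 and 0.40 CPM, by 2.21 on the log2 scale (edgeR adjusted p = 0.00693). Nat8f7 had 19.9, 18.2 and 28.5 expected counts in the model libraries and 0, 1 and 0 with myricetin (edgeR adjusted p = 0.00173). The ratio of its summed counts was 70.3, with a 95% counting interval of 12.3 to 2840. Alms1, which overlaps it on the other strand, differed by -0.36 (edgeR adjusted p = 0.573).

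Nat8, next in the cluster, was at 22.0, 12.6 and 30.0 CPM in the model and at 7.84, 4.58 and 7.93 CPM with myricetin, a difference of -1.66 ± 0.45 that did not pass (edgeR adjusted p = 0.159) although the groups did not overlap. DESeq2 called Nat8, Nat8f6 and Nat8f5 lower and gave no adjusted p for Nat8f7. Nat8f2, the most highly expressed member at 1227 CPM in the model, was at 1141 CPM with myricetin. Nat8f4 and Nat8f1 differed by -0.07 ± 0.23 and 0.04 ± 0.13. Along the chromosome the order was thus 4 genes with lower estimates and then 3 with differences inside their intervals around 0. In the control libraries Nat8f5 was at 21.6 CPM and Nat8f6 at 1.43 CPM, and with myricetin neither differed from that control by the edgeR test (adjusted p = 0.11 and 0.0753). Nat8f7 did differ, at 1.10 CPM in the control and 0.02 CPM with myricetin (edgeR adjusted p = 0.000884). With quercetin and kaempferol Nat8f5 averaged 9.25 and 17.6 CPM, Nat8f6 0.57 and 0.70 CPM and Nat8f7 0.28 and 0.27 CPM. By the edgeR test 0 of the 7 Nat8 genes differed between myricetin and either of these flavonols. Of all genes 0.798% differed from quercetin and 0% from kaempferol. This does not show equal levels: Nat8f7 had log2 differences of -3.45 and -3.37 (edgeR adjusted p = 0.0939 and 0.394), which rest on few counts.

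**Figure D3:**
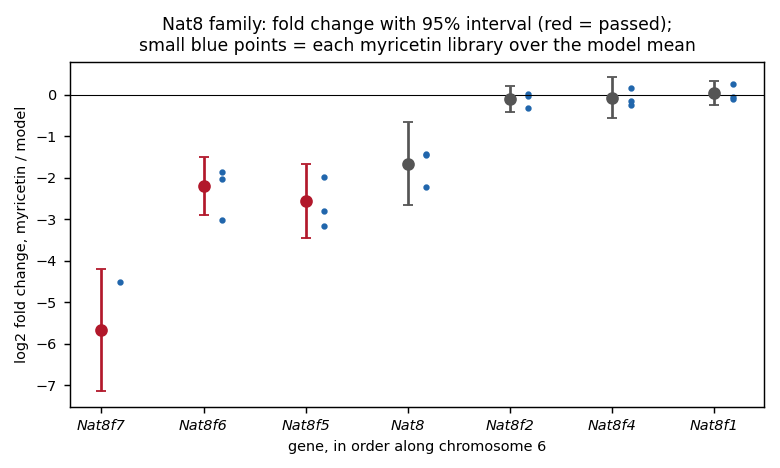
For 7 Nat8 genes in their order along chromosome 6, large points give the log2 fold change of myricetin over model with its 95% interval, and small points each myricetin library over the model mean. Nat8f7, Nat8f6 and Nat8f5 passed (red), and Nat8f7 has 1 small point because 2 of its myricetin libraries had 0 counts.

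The promoter windows of Nat8f7 and Nat8f6 were the most alike of the family, with identical bases at 91.5% of alignment positions, gaps included, against 46.0% to 57.0% for all other pairs. Their outer stretches are printed because both hold TGATGNAAT on the reverse strand, in capitals, the letters searched for the response element that C/EBP and ATF proteins share. They are RefSeq sequences of GRCm38.p6, read on the minus strand, at chr6:85708733-85708811 for Nat8f7 and chr6:85810041-85810127 for Nat8f6. The match starts 227 bases before the start to which the Nat8f7 window belongs and 219 before that of Nat8f6. For Nat8f7 the stretch lies inside the span of the gene, which RefSeq places at 85706707 to 85708885 on the minus strand, so it is not upstream of the gene's outermost start.
Nat8f7: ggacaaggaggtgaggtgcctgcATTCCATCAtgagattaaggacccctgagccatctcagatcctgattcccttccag
Nat8f6: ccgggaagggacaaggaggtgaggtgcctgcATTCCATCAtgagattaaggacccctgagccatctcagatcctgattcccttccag

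Those letters stood on either strand in 0.8% of all 32851 windows (0.9% of genes) and in 3 of the 44 genes that passed, the third being Syt1. The Nat8f5 window did not hold them.

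Bile acids are made from cholesterol by the liver and returned to it from the gut by transporters. Slc10a2, the sodium-dependent bile acid transporter best known from ileum and bile duct cells, fell from 13.5, 12.7 and 16.8 CPM to 5.89, 3.68 and 3.39 CPM, or -1.73 ± 0.34 on the log2 scale (edgeR adjusted p = 0.0487). It averaged 14.1 CPM in the control and 13.9 ± 8.01 CPM with quercetin, and it was lower with myricetin than with either (edgeR adjusted p = 0.00968 and 0.0377). With kaempferol it averaged 8.56 CPM, and by the same test myricetin and kaempferol did not differ (edgeR adjusted p = 0.57). The summed level of 11 bile duct cell markers ranged from 72.9 to 85.0 CPM in the model and from 36.3 to 89.6 CPM with myricetin. None of the 8 that entered the gene test passed, and the part of bile duct cells in the Slc10a2 result was not tested. Akr1d1, a steroid reductase of bile acid synthesis, fell from 168, 155 and 123 CPM to 93.1, 84.3 and 97.8 CPM, by 0.70 on the log2 scale (edgeR adjusted p = 0.0487). Both genes passed in only 1 of the 6 fits that left out a library, with adjusted p up to 0.215 for Slc10a2 without myricetin replicate 8 and 0.22 for Akr1d1 without model replicate 1.

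Cyp7a1, the rate-limiting enzyme of bile acid synthesis, was at 152, 156 and 139 CPM in the model and at 59.4, 47.0 and 110 CPM with myricetin. The groups did not overlap, but the change of -1.05 ± 0.62 did not pass (edgeR adjusted p = 0.561). Cyp8b1, which sets the share of cholic acid, differed by -0.49 ± 0.22 (edgeR adjusted p = 0.412), and Cyp27a1, the first enzyme of the alternative route, stood at 470 CPM in each group. Of 16 bile acid synthesis genes 1 fell and 15 did not pass, and of 18 genes of bile acid transport and FXR signalling 1 fell and 17 did not.

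None of the set genes of lipid metabolism, named whatever their result, passed. Fasn, fatty acid synthase, was at 348, 509 and 264 CPM in the model and at 212, 168 and 168 CPM with myricetin, lower in all 3 libraries but by -1.03 ± 0.38 and short of the threshold (edgeR adjusted p = 0.297). Scd1, the desaturase that makes oleic acid, was at 7070, 5767 and 5409 CPM and at 4206, 3452 and 3747 CPM, a difference of -0.68 ± 0.35 (edgeR adjusted p = 0.487, but 0.038 in a fit of these 6 libraries alone). Srebf1, the regulator of fatty acid synthesis, differed by -0.23 ± 0.17. In cholesterol synthesis Sqle, squalene epoxidase, differed by -0.96 ± 0.81 and Hmgcs1 by -0.30 ± 0.29. Sqle was at 8.20 CPM in model replicate 2 and under 3 CPM in the other 5 libraries, and without that library its difference was 0.40.

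Of 15 sterol efflux genes none passed and 11 lay above 0, with a median of 0.17. The 16 genes of the list, tested or not, summed to 1100 to 1330 CPM in the model and 1410 to 1550 CPM with myricetin, without overlap. Other lists had separate sums too, such as housekeeping genes (5910 to 6390 CPM in the model, 4250 to 5350 CPM with myricetin). Abcg5, a subunit of the transporter that exports sterols into bile, was at 108, 54.7 and 133 CPM in the model and 155, 216 and 173 CPM with myricetin, a difference of 0.88 ± 0.34 without overlap (edgeR adjusted p = 0.318). Abca1, which loads cholesterol onto HDL, differed by -0.14 ± 0.11. For lipid uptake, storage and burning, Cd36 differed by -0.02 ± 0.44, Plin2 by -0.32 ± 0.17, Pparg by 0.03 ± 0.20 and Cpt1a by 0.29 ± 0.12. The target gene of the aryl hydrocarbon receptor, Cyp1a1, was at 0.96 CPM in the model and 1.21 CPM with myricetin. The 95% intervals still allow sizeable changes, from -1.86 to -0.21 for Fasn and from -2.42 to 0.33 for Cyp7a1.

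**Figure D4:**
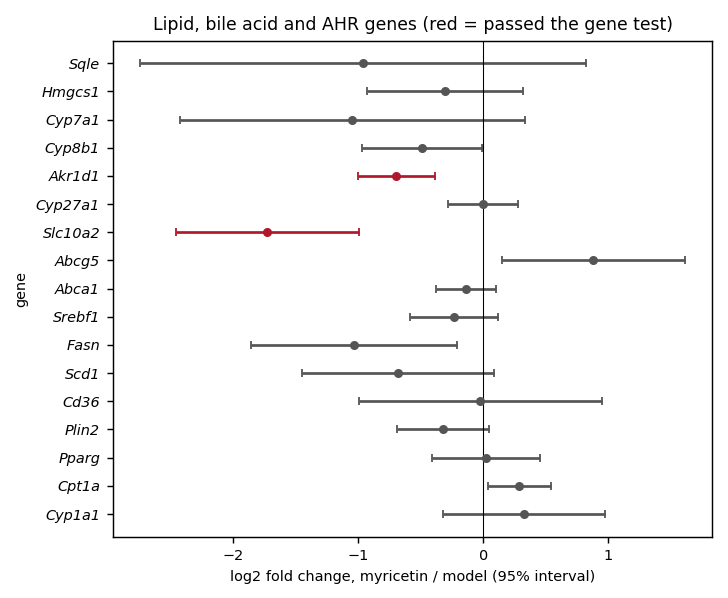
Points give the log2 fold change of myricetin over model for genes of sterol, bile acid and fatty acid metabolism and for Cyp1a1, with bars for the 95% interval. Only Slc10a2 and Akr1d1 passed (red), and the intervals of Fasn, Abcg5, Cyp8b1 and Cpt1a exclude 0 without passing after adjustment over all genes.

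Among 21 fatty acid synthesis genes none passed, 20 had a log2 fold change below 0, and the median was -0.56. Among 25 cholesterol synthesis genes none passed and 24 lay below 0, with a median of -0.31. DESeq2, run as an alternative, called 122 of all 12658 genes lower and 97 higher. It called Thrsp, Elovl6, Acly and Pklr lower in the first list and Pmvk and Lss lower in the second. Members of other lists were called too, such as Cyp4a10, Cyp4a14 and Cyp4a31 higher among PPAR alpha induced genes. Among glycogen genes Ppp1r3c and Pygl were called lower. Thrsp, which promotes lipogenesis and is named here after its values were seen, went from 259.6 to 61.7 CPM, a difference of -2.07 ± 0.39 (edgeR adjusted p = 0.0543). Members of a pathway vary together between libraries, so these counts of signs are a description.

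Outside these pathways the genes that rose had varied roles. Trib3, a pseudokinase that is a known target of the stress factor ATF4, rose from 2.27, 2.27 and 1.65 CPM to 6.35, 10.7 and 11.1 CPM, by 2.18 ± 0.30 (edgeR adjusted p = 0.00363). It was the sole gene to pass among 21 of the integrated and endoplasmic reticulum stress list, of which 15 lay below 0. Atf4 itself differed by 0.17 ± 0.10 and the chaperone Hspa5 by -0.57 ± 0.35. Fbxo21, part of a ubiquitin ligase, rose from 90.3, 61.9 and 73.9 CPM to 141, 170 and 158 CPM, by 1.05 ± 0.14 (edgeR adjusted p = 0.00174).

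Syt1, a calcium sensor of vesicle release, rose by 1.58 ± 0.27 from 3.71 CPM, and Tns2, an adhesion protein, by 1.11 ± 0.20 from 36.0 CPM. Pla2g12a, a secreted phospholipase, rose from 8.08, 7.85 and 7.84 CPM to 14.7, 22.4 and 30.6 CPM. Casp6, an effector caspase, rose from 13.8, 9.83 and 10.7 CPM to 22.0, 20.9 and 30.8 CPM and is the neighbour of Pla2g12a on chromosome 3, at 129901415 to 129914112 against 129878606 to 129895825, on the same strand.

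Smaller rises of 1.38-fold to 1.95-fold were seen for Cyp2j9, a cytochrome P450, for the lysosomal enzymes Arsa and Dnase2a, for the chromatin proteins Hmga1 and Hmgb3, and for Wdr6, Plpp2, Chpf2, Mettl27, Nop53 and 2410002F23Rik. In a fit of these 6 libraries alone Nop53 did not pass (edgeR adjusted p = 0.0581). Cln6, whose loss causes a storage disease of neurons, rose from 1.99 to 4.88 CPM and Unc93a2 from 1.17 to 3.66 CPM.

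Lingo4, a leucine-rich repeat membrane protein, had 17, 14 and 27 counts in the model libraries and 0 in each myricetin library, which is at least 20.4-fold lower against a floor of 3 counts over the group (edgeR adjusted p = 0.00918). The 95% counting interval of the ratio of summed counts starts lower, at 16.1. Moxd1, a monooxygenase related to dopamine beta-hydroxylase, had the largest fall among genes that passed with a mean of at least 5 CPM in either group. It was at 27.7, 21.5 and 60.3 CPM in the model and at 2.69, 6.57 and 0.86 CPM with myricetin, with wide spread in both groups, which is -3.44 ± 0.61 on the log2 scale (edgeR adjusted p = 0.0437, reaching 0.126 without model replicate 5 and 0.215 in a fit of these 6 libraries alone). Its control mean was 1.66 CPM. Capn8, a calpain protease, fell from 10.2, 8.43 and 19.9 CPM to 5.38, 3.86 and 3.27 CPM (edgeR adjusted p = 0.0289, but 0.12 in that fit), with a control mean of 2.00 CPM. For both genes the myricetin libraries did not differ from the control by the edgeR test (adjusted p = 0.41 and 0.0642).

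Several enzymes of small-molecule metabolism fell. Odc1, the first enzyme of polyamine synthesis, fell from 81.5 ± 12.4 to 49.1 ± 3.9 CPM (edgeR adjusted p = 0.022). Gda, a guanine deaminase, fell to 55.0% of its model level, Ddo, which oxidises D-aspartate, to 62.5%, and Afmid, of the kynurenine pathway, to 67.3%. The phosphate and urate carrier Slc17a3 fell to 64.6%.

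Genes of signalling and of the endoplasmic reticulum were also among those lower. Ppp1r1b, an inhibitor of protein phosphatase, fell from 8.88, 5.99 and 7.38 CPM to 3.55, 3.08 and 2.99 CPM. Grb10, an adaptor that restrains insulin receptor signalling, fell from 5.43 to 2.49 CPM, and Prkar2a, a regulatory subunit of protein kinase A, from 103.1 to 69.5 CPM. P4hb, protein disulfide isomerase, fell from 1584 ± 94 to 1131 ± 52 CPM, or -0.49 ± 0.10 on the log2 scale (edgeR adjusted p = 0.045, but 0.0632 in a fit of these 6 libraries alone). Creld1 and Parp16, both of the endoplasmic reticulum, fell to 64.6% and 55.2% of the model level. Lgalsl, a galectin-like protein, fell from 29.0, 29.9 and 27.2 CPM to 19.1, 12.8 and 14.2 CPM (edgeR adjusted p = 0.00535). It averaged 6.96 CPM with quercetin, below myricetin (edgeR adjusted p = 0.000988). Others that fell were Ahcyl2, Ints3 and Zbtb21, by 0.50 to 0.90 on the log2 scale.

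**Figure D5:**
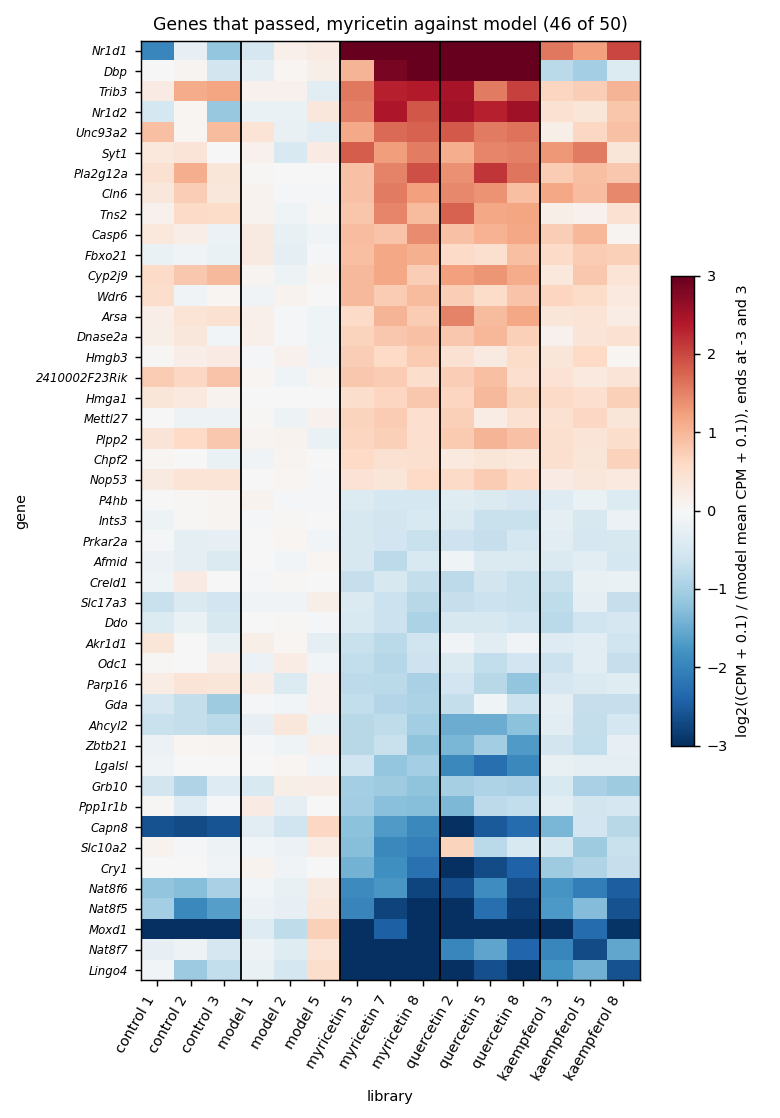
Rows are 46 of the 50 genes that passed, in order of their log2 fold change, and columns the 15 libraries. Colour gives log2 of CPM plus 0.1 over the model mean plus 0.1, with the scale ended at -3 and 3, and myricetin replicate 5 is nearer to the model than replicates 7 and 8 for genes such as Dbp and Cry1.

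Of the 50 genes, 4 differed between myricetin and quercetin in the direct test, while 0.798% of all genes did. Dbp and Slc10a2 were among them and lower with myricetin, and Lgalsl was higher. None of the 50 differed between myricetin and kaempferol, a comparison in which no gene of the table passed. Against the control 32 of the 50 differed, 16 in each direction, while 9.2% of all genes did. The 50 were chosen with the same myricetin libraries, so nothing is read from these counts. Failing to pass does not show equal levels: for Moxd1 the myricetin mean was 3.38 CPM and the quercetin mean 0.20 CPM (log2 difference 4.08, edgeR adjusted p = 0.12).

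Across 60 gene lists with 1031 distinct genes tested, 12 genes passed, while 0.395% of all genes did, and 52 lists had no passing member. The lists were chosen with earlier results of these data known, so nothing is read from that count. Heat shock genes gave 23 of 23 values below 0 (median -0.39) and proteasome genes 32 of 36 above 0 (median 0.22), with no member passing in either. An unadjusted p under 0.05 was found for 7 of the 23, all lower, and for 16 of the 36, all higher, against 11.9% of all genes. The groups did not overlap in 9 of the 23 and 20 of the 36, against 18.8%. Members of a list vary together between libraries, so these counts are a description. Of 10 housekeeping genes 9 also lay below 0 (median -0.14) and none passed, so a lean below 0 is not particular to heat shock genes. Among 12 lists of cell type markers 0 of 124 genes passed the edgeR test. For macrophage and Kupffer cell markers 21 of 23 tested lay above 0 (median 0.34). The summed level of all 24 listed ranged from 392 to 539 CPM in the model and from 523 to 675 CPM with myricetin. Of 8 adipocyte markers 4 were tested and none passed, 3 of them lay below 0 with an unadjusted p under 0.05, and their median was -1.19. The summed level of that list, most of it Car3 at 4216 CPM in the model, ranged from 3710 to 4890 CPM in the model and from 2120 to 3360 CPM with myricetin, and from 1220 to 1880 CPM in the control. That sum mostly follows Car3 and so does not measure adipocytes as such. The fatty acid synthesis list summed to 9770 to 12100 CPM in the model and 7160 to 7910 CPM with myricetin, and the part of the adipocyte markers in that was not tested. In bulk tissue fewer cells of a type and less RNA per cell cannot be told apart.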

How the data were processed

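Liver RNA was sequenced in 15 libraries. The submitters' processing notes list RSEM 1.3.1, HISAT2 2.1.0, DESeq2 1.4.5, GRCm38.p6 as the build, and Bowtie2 2.3.4.3, in roles not given. The deposited table holds the authors' expected counts for 16809 genes, of which 5.37% of values were not whole. The authors' DESeq2 q values and log2 fold changes, per the file headers, served for 1 count only: 277 genes had q under 0.05 in the authors' deposited table for this comparison, all 50 genes below among them.

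Expected counts were rounded and filtered with filterByExpr, leaving 12658 genes. A quasi-likelihood model (edgeR 4.0.16 in R 4.3.3, robust, TMM factors) was fitted over all 15 libraries with 10 residual degrees of freedom, and tested 2-sided. The SE is the size of the log2 fold change over the square root of F. The script was tested on simulated data. Alternatives were DESeq2 1.42.0, RLE factors, other filters, fewer samples and a replicate block. Same-numbered libraries did not deviate together, so numbers were not taken as pairs. Promoters and gene positions are RefSeq's on GRCm38.p6. Beside the E-box, D-box, ROR and C/EBP-ATF elements, motifs for the sterol, PPAR, glucocorticoid, antioxidant, heat shock, interferon, xenobiotic and serum response elements were searched and are not given.

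Genes named were 19 set genes, the 8 highest and 8 lowest changes among passing genes at 5 CPM or more, and up to 3 passing genes per direction of lists with at least 2. Other passing genes, and clock and list members, were added, and some genes that passed are not reported here. Members and lists were chosen with earlier results of these data known.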

Additional observations from a re-analysis of the deposited data

How the results depend on the processing

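All 50 genes kept their direction in every setting that gave them an adjusted p, and 9 passed whichever library was left out. For Nat8f7 and Lingo4 DESeq2 gave none, and Lingo4 did not enter the fit with the stricter filter. DESeq2 called 219 genes between myricetin and model (97 higher, 122 lower), 48 of them shared with the 50, 269 between myricetin and quercetin and 36 between myricetin and kaempferol. A fit of only the groups compared called 125, 10 and 2 in the same order, with 44 of the 50 among the 125. Leaving out libraries in turn gave 13 to 65 genes against the model, 470 to 1354 against the control, 26 to 202 against quercetin and 0 to 13 against kaempferol. With a replicate block, 5, 2, 6 and 1 genes passed for model, control, quercetin and kaempferol. Model and myricetin share only number 5, and none of 14 same-numbered pairs correlated above 0.1. The cause of these shifts was not tested, except that fewer libraries or degrees of freedom enter by construction when libraries are left out or a block is added. Genes near 0 changed sign: Cyp27a1 was -0.0071 with DESeq2 and with RLE factors and -0.0024 with the stricter filter, and leaving out libraries in turn gave -0.10 to 0.079. Sqle, farther from 0 at -0.96 with all libraries, ranged from -1.41 to 0.40 when libraries were left out and was above 0 only without model 2. Cd36 was 0.14 with the replicate block and -0.29 to 0.49 without single libraries, and Pparg -0.11 to 0.15. RLE factors and other filters left 45 to 50 genes against the model. At these depths genes of few counts, such as Lingo4 with 58 in the model, rest on little.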
